A study of Homo sapiens with 36 samples.

Results

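The immediate-early genes are the first genes a cell transcribes when a growth factor or a stress reaches it. 10 of them were followed here by name, FOS, FOSB, FOSL1, JUN, JUNB, EGR1, IER2, IER3, ATF3 and DUSP1, out of 58219 genes listed in the RNA tables and 43582 in the footprint tables. They were chosen as members of this class and not by a threshold on their values. The cells were WiT49, a line of anaplastic Wilms tumor, which is a childhood kidney cancer. They were treated with 2 nM actinomycin D (actD), which inserts into DNA and hinders the polymerases, or with its vehicle dimethyl sulfoxide (DMSO), in medium with 10% serum. Treatment lasted 6 h, 72 h or 2 weeks, and the 2-week schedule was 2 cycles of 7 days with 3 days of drug or vehicle followed by 4 days of plain medium. Total RNA and ribosome footprints, the RNA fragments that translating ribosomes shield from nuclease, were sequenced from each of the 6 combinations of arm and time, with 3 libraries in each of the 12 groups. All libraries come from 1 cell line, and the labels do not say whether replicates are separate cultures, so p-values measure only the spread between these libraries, which may be technical. For RNA at 2 weeks a library's title and its name in the table state different treatments. The names in the table are used here (named actd, named dmso), and every 2-week RNA difference is named actd minus named dmso.

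These genes need no new protein for their transcription, because the factors that switch them on are already present and are activated by kinases such as ERK, JNK and p38. FOS and JUN family proteins pair to form AP-1, a transcription factor. EGR1 and ATF3 are transcription factors too, and DUSP1 is a phosphatase that removes the activating phosphates from those kinases. The messages are mostly short-lived, and adenine- and uridine-rich elements in the 3′ untranslated region, built around the pentamer ATTTA, are a known route to their fast decay.

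The control regions are shown first because they are the features by which this class is usually recognised. The RefSeq table (GRCh38.p14) held a single start for 7 of the 10 genes. The 250 bases before the start of 4 of them are given here, 5′ to 3′ on the gene's own strand. Capitals mark matches on either strand to the cyclic-AMP response element or to its first 5 bases, to the AP-1 site and to the CArG box, which serum response factor binds. They also mark the TATA box on the sense strand. The letters searched are spelled out after the sequences.

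FOS, chr14:75278578-75278827, plus strand: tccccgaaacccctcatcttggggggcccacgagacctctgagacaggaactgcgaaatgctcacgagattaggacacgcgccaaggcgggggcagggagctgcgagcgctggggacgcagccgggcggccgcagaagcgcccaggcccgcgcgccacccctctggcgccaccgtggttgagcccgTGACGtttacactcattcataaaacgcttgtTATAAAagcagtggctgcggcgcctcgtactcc
EGR1, chr5:138465229-138465478, plus strand: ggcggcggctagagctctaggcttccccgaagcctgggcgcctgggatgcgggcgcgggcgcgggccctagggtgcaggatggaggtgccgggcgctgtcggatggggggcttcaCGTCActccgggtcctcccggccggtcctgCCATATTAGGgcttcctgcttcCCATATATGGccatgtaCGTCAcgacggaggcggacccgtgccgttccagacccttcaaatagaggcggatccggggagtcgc
DUSP1, chr5:172771196-172771445, minus strand: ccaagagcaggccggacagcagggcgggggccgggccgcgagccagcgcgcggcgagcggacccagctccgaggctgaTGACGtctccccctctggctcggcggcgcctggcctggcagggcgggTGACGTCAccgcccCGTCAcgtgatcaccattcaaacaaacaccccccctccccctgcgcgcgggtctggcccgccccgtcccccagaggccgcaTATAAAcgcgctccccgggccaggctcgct
JUNB, chr19:12791236-12791485, plus strand: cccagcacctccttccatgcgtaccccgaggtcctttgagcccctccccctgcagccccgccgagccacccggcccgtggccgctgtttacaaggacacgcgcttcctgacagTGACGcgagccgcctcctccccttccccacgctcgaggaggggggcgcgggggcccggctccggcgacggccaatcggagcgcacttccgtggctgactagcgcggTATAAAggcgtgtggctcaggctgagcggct

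The first 5 bases of the cyclic-AMP response element, TGACG read on both strands, were present in 7 of the 7 windows (FOS, FOSB, JUN, JUNB, EGR1, IER2 and DUSP1) and in 21.2% of 35116 windows of the same length. The full element, TGACGTCA, which holds TGACG on both strands, was in the DUSP1 window alone among the 7, against 1.65% of all windows. CArG boxes were found only in EGR1 among the 7, at positions -105 to -96 and -83 to -74 from the start, against 1.16% of all windows. The TATA box, TATAAA on the sense strand, was present in FOS, FOSB, JUNB and DUSP1, 4 of 7 against 6.8% of all windows, and CCAAT on either strand was in JUN and JUNB against 32% of all windows. The AP-1 site TGANTCA, found in 6.57% of all windows, and the EGR site GCGTGGGCG, found in 0.72%, had no match in these 7 windows. Windows so close to the start leave out more distant elements, and a match is a description of letters, not of a bound factor.

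The 3′ untranslated regions carried the decay pentamer in 9 of the 10 genes by the GENCODE release 29 annotation (GRCh38). ATTTA occurred 6 times in IER3, 5 times in FOS, 4 times in DUSP1, 3 times each in FOSB, JUN and ATF3, 2 times in JUNB, once in FOSL1 and EGR1, and not at all in IER2. Short stretches of 30 bases around the sites are printed for the genes with a pair of pentamers within that distance and for EGR1, whose RNA varied most between libraries at 72 h and 2 weeks. Capitals mark ATTTA, and FOS and DUSP1 each carry 2 overlapping copies.

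FOS, chr14:75282058-75282087, plus strand: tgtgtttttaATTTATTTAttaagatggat
DUSP1, chr5:172768640-172768669, minus strand: gctggtccttATTTATTTAacttcacccga
IER3, chr6:30743647-30743676, minus strand: aattaatATTTAtatgtATTTAtgtacgtc
EGR1, chr5:138469064-138469093, plus strand: ctgaaaatgtaaATTTAtaaatatattcag

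Per kb of the region, ATTTA was densest in IER3 (8.14), FOS (6.2), DUSP1 (5.95) and JUNB (4), followed by ATF3 (2.45) and JUN (2.33). FOSL1 (1.5), FOSB (1.39), EGR1 (0.81) and IER2 (0) lay below the median of 1.82 over the 14603 such regions of at least 300 bases. The longer decay motif TTATTTATT was found once in FOS and 2 times in DUSP1, and 7.52% of all 18880 regions of any length held it. Within the last 300 bases of the transcript's 3′ untranslated region, ATTTA was present in 8 of the 10 genes and in 48.9% of 14603 genes with a region at least that long. At least 2 copies were present in FOS, JUN and JUNB, 3 of 10 against 19.6% of genes, and TTATTTATT was present in FOS alone, against 2.06% of genes.

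RNA libraries held 40221994 to 69240041 counts and footprint libraries 152556 to 1281039. The 10 genes together took 23098 to 27127 counts per RNA library after 6 h of treatment, 2944 to 9051 after 72 h and 4707 to 6832 after the 2-week schedule, but only 8 to 200 counts per footprint library. RNA levels are given as CPM, that is, counts relative to the TMM-adjusted total of each library. In RNA the Wilms tumor and nephron progenitor markers IGF2 (1020 to 2359 CPM), WT1 and NCAM1 were above 3 CPM in every library, whereas SIX2, PAX2, SALL1, EYA1 and CITED1 stayed under 1 CPM, with SALL1 listed at 0 in 5 libraries and EYA1 in 4. The blood, endothelial and liver markers PTPRC, PECAM1, CDH5 and ALB were at 0 in 11 to 17 of the 18 RNA libraries, and CD68 reached at most 2.095 CPM. The mesenchymal markers VIM, COL1A1 and COL3A1 were at 157 CPM or more. Of the epithelial markers, KRT18 was at 327.5 CPM or more, EPCAM lay between 5.98 and 21.7 CPM and CDH1 between 0.66 and 3.71 CPM. Each table has its own count scale, so CPM are compared within a table only.

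Per length, IER3, DUSP1, JUNB and IER2 led the class in vehicle-treated cells. At 6 h the mean level in the 3 DMSO libraries was 50.2 ± 7.45 (SD) CPM per kb of exon for IER3, a stress-inducible survival gene. It was 33.6 ± 5.37 for DUSP1, 29.5 ± 5.04 for JUNB and 21.2 ± 3.19 for IER2, a small nuclear protein gene. EGR1 (15.3 ± 3.79) and JUN (13.9 ± 1.12) followed, then FOSL1 (5.21 ± 1.33), FOS (4.72 ± 1.53), ATF3 (1.68 ± 0.908) and FOSB (0.299 ± 0.0447). By their ranges over the DMSO libraries, DUSP1 and JUNB overlapped, as did IER2 and EGR1, EGR1 and JUN, and FOSL1 and FOS. The other neighbours in this order did not overlap. Against the 16678 protein-coding genes above 0 in those libraries, IER3 stood at the 96.7th percentile of level per length, DUSP1 at 94.4, JUNB at 93.4, IER2 at 90.1, EGR1 at 85.3, JUN at 83.7 and FOSB at 23.3.

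All 10 genes ranked higher among coding genes in the 6 h vehicle libraries than in the vehicle libraries of the other times. JUN stood at the 83.7th percentile at 6 h, at 47.8 after 72 h and at 32.1 in the libraries named dmso at 2 weeks. EGR1 went from 85.3 to 52.5 and 34.1, and FOSL1, an AP-1 subunit that usually peaks later than FOS, from 62.5 to 31.1 and 22.0. JUNB and IER2 were lowest at 72 h, at 59.4 and 69.1, and stood at 84.1 and 84.7 at 2 weeks. IER3 stayed at 96.7, 85.2 and 85.1. The median percentile of the 10 genes in vehicle cells was 84.5, 50.2 and 39.9 at the 3 times, and 38, 37 and 38 other primary response genes with RNA above 0 had medians of 58.2, 47.5 and 38.9. The actD libraries gave medians of 82.8, 63.1 and 57.8 for the 10 genes. Time, table and count scale change together, so they cannot be told apart in these ranks, and no test was made.

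In RNA none of the 10 genes passed the test for a change with actD at any time. All 10 were tested with edgeR's quasi-likelihood test, and 0 of 10 had a Benjamini-Hochberg adjusted p-value under 0.05 at 6 h, at 72 h or at 2 weeks. The background was equally sparse, with 0% of 22669 tested genes called at 6 h, 0.00472% of 21195 (1 gene) at 72 h and 0% of 21137 at 2 weeks. At an unadjusted p under 0.05 there was 1 member at 6 h, EGR1, and 0 at the other times, against 8.21%, 13.1% and 8.93% of all tested genes. The median log2 fold change of the 10 genes was 0.12 at 6 h, 0.27 at 72 h and 0.16 at 2 weeks, beside 0.02, 0.02 and -0.02 over all tested genes. Values lay above 0 for 8, 8 and 6 of the 10 genes. The arms did not overlap for 1, 0 and 0 of the 10 genes, against 15.8%, 20.9% and 15.7% of all tested genes. In bulk RNA, fewer cells that express a gene and less of its RNA per cell cannot be told apart. TMM scaling also sets the bulk of genes near no change, so each value is relative to the other genes of its table. A fall in RNA amount shared by most genes would not be seen. With DESeq2 the same counts gave 0 of 10 at 6 h and 72 h and 0 of 7 at 2 weeks, where FOSB, FOSL1 and ATF3 had no adjusted p, although it called 195, 590 and 171 genes over the whole tables.

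**Figure D1:**
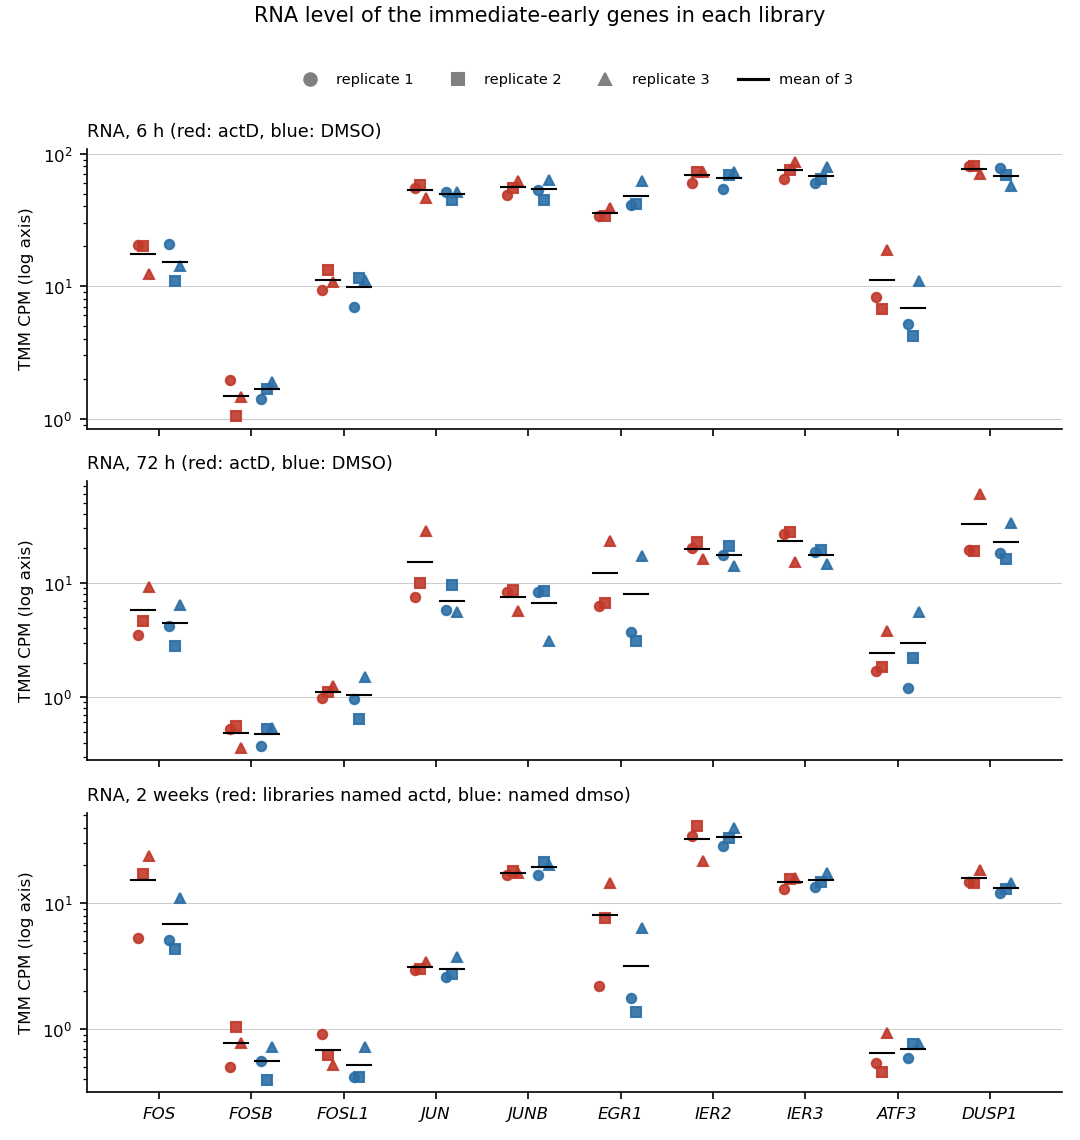
RNA level of each immediate-early gene in TMM-scaled CPM (log axis), 1 point per library, with the mean of 3 as a bar, for the 6 h, 72 h and 2-week tables. The arms overlap for every gene at every time except EGR1 at 6 h, and at 72 h the replicate 3 triangles of EGR1, DUSP1, ATF3 and FOS stand above the other libraries of their arm.

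FOS, the partner of the JUN proteins in AP-1, stood at 20.57, 19.99 and 12.27 CPM in the 3 actD libraries at 6 h and at 20.71, 11.01 and 14.12 CPM with DMSO. Both arms covered nearly the same span. At 72 h FOS was at 3.47, 4.66 and 9.24 CPM with actD and at 4.19, 2.81 and 6.45 with DMSO, so replicate 3 was highest in each arm. At 2 weeks it was at 5.35, 17.1 and 23.8 CPM in the libraries named actd and at 5.15, 4.37 and 11.03 in those named dmso. Libraries 2 and 3 named actd were above every library named dmso, but library 1 was not. The log2 fold change was 0.20 (SE 0.27, edgeR adjusted p = 0.897) at 6 h, 0.37 (SE 0.45, adjusted p = 0.751) at 72 h and 1.17 (SE 0.54, adjusted p = 0.571) at 2 weeks. The 2-week interval of -0.06 to 2.40 includes no change, and the sign turns if the titles hold instead of the library names.

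FOSB and FOSL1 are further FOS family subunits. FOSB was low at each time, and FOSL1 was low at 72 h and 2 weeks. FOSB lay between 1.05 and 1.95 CPM in the 6 libraries at 6 h, between 0.36 and 0.555 at 72 h and between 0.397 and 1.05 at 2 weeks. FOSL1 lay between 6.93 and 13.1 CPM at 6 h, between 0.641 and 1.51 at 72 h and between 0.416 and 0.91 at 2 weeks. The arms overlapped for both genes at each time. Their log2 fold changes ranged from -0.16 (FOSB, 6 h) to 0.47 (FOSB, 2 weeks), with edgeR adjusted p-values from 0.747 to 0.996.

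JUN, which can form AP-1 alone or with FOS proteins, was steady at 6 h, with 54.8, 57.5 and 46.4 CPM under actD and 51.7, 44.7 and 51.4 under DMSO. Its log2 fold change of 0.10 (SE 0.12) had a 95% interval of -0.18 to 0.39 (edgeR adjusted p = 0.888). At 72 h JUN was at 7.46, 9.93 and 28.2 CPM with actD and at 5.79, 9.49 and 5.55 with DMSO. ActD library 3 alone stood clear of the rest. The 72 h log2 fold change was 1.13 (SE 0.51, interval -0.07 to 2.33, adjusted p = 0.406), the highest of the 10 genes at that time, and without replicate 3 of both arms, an alternative chosen after seeing the data, it was 0.17 (adjusted p = 0.774). At 2 weeks JUN lay between 2.58 and 3.75 CPM in all 6 libraries, with a log2 fold change of 0.05 (SE 0.21, adjusted p = 0.96). The treatment effect on JUN differed between 72 h and 6 h by 1.01 on the log2 scale (SE 0.57), with an adjusted p of 0.69 in edgeR's interaction test.

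JUNB, an AP-1 subunit that often opposes JUN, lay between 44.9 and 63.2 CPM at 6 h and between 16.7 and 21.1 CPM at 2 weeks. At 72 h it was at 8.30, 8.56 and 5.62 CPM with actD and at 8.25, 8.51 and 3.10 with DMSO. Replicates 1 and 2 of both arms were nearly equal, and replicate 3 was the lowest of each arm. The log2 fold changes were 0.05, 0.18 and -0.16 at 6 h, 72 h and 2 weeks, with edgeR adjusted p-values of 0.969, 0.869 and 0.726.

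EGR1, a zinc-finger factor and a direct target of serum response factor, was the 1 member whose arms did not overlap. At 6 h it stood at 33.8, 33.9 and 39.1 CPM with actD and at 40.7, 41.7 and 61.7 with DMSO. Every actD library was below every DMSO library. The log2 fold change was -0.43 (SE 0.18, interval -0.84 to -0.02), with an unadjusted p of 0.0402 and an adjusted p of 0.594 in edgeR's test, so it did not pass. Without DMSO library 3, the highest of the 6, it was -0.21 (unadjusted p = 0.127). At 72 h EGR1 was at 6.32, 6.71 and 23.3 CPM with actD and at 3.68, 3.12 and 17.2 with DMSO. Replicate 3 was 3.58 times the mean of the other replicates with actD and 5.06 times with DMSO. At 2 weeks the pattern recurred, with 2.19, 7.63 and 14.49 CPM in libraries named actd and 1.76, 1.38 and 6.41 in those named dmso.

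At the later times the intervals of EGR1 were wide in the main fit, which has no replicate block, and the arms overlapped. The log2 fold change was 0.59 (SE 0.77, interval -1.20 to 2.39, edgeR adjusted p = 0.766) at 72 h and 1.35 (SE 0.74, interval -0.36 to 3.05, adjusted p = 0.634) at 2 weeks. The 2-week value was 0.64 without replicate 3 of the libraries named actd and 2.37 (edgeR unadjusted p = 0.0159, adjusted p = 0.314) without replicate 3 of those named dmso. Without replicate 3 of both arms, again chosen after seeing the data, the 72 h value was 0.93, with an unadjusted p of 0.00441 and an adjusted p of 0.0775, still short of the threshold, in a fit that called 419 of 20920 genes. Leaving out actD replicate 3 alone turned the sign of EGR1 at 72 h to -0.31 (SE 0.78), and likewise that of FOS to -0.15 and that of DUSP1 to -0.23. Leaving out DMSO replicate 3 alone gave 1.83 for EGR1 (edgeR unadjusted p = 0.0313, adjusted p = 0.26). The effect on EGR1 at 72 h differed from that at 6 h by 1.01 on the log2 scale (SE 0.87, adjusted p = 0.808).

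ATF3, a factor of the unfolded-protein and amino-acid stress responses, was at 8.26, 6.70 and 18.6 CPM with actD at 6 h and at 5.19, 4.19 and 10.99 with DMSO. ActD libraries 1 and 2 fell within the range of the DMSO libraries and library 3 lay above it. The log2 fold change was 0.72 (SE 0.46, interval -0.35 to 1.79, edgeR adjusted p = 0.741). It was 0.14 without actD replicate 3 and 1.25 (edgeR unadjusted p = 0.0277, adjusted p = 0.515) without DMSO replicate 3. At 72 h ATF3 stood at 1.69, 1.83 and 3.82 CPM with actD and at 1.202, 2.21 and 5.55 with DMSO, a log2 fold change of -0.30 (SE 0.59, adjusted p = 0.853). At 2 weeks all 6 libraries were between 0.454 and 0.932 CPM.

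The arms of IER2 and IER3 overlapped at each time. At 6 h IER2 lay between 54.0 and 73.1 CPM and IER3 between 60.2 and 86.3, with log2 fold changes of 0.07 (interval -0.27 to 0.41) and 0.15 (interval -0.21 to 0.50). At 72 h IER3 was at 26.6, 27.6 and 15.1 CPM with actD and at 18.6, 19.2 and 14.7 with DMSO. Replicates 1 and 2 with actD exceeded all DMSO libraries and replicate 3 did not. The log2 fold change of 0.40 (SE 0.28, edgeR adjusted p = 0.567) became 0.51 (adjusted p = 0.11) without replicate 3 of both arms. IER2 at 72 h was at 20.1, 22.7 and 16.3 CPM with actD and at 17.4, 21.05 and 14.03 with DMSO. At 2 weeks IER2 differed by -0.06 (interval -0.60 to 0.47) and IER3 by -0.04 (interval -0.37 to 0.30).

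DUSP1, the phosphatase that ends kinase signalling, was at 81.1, 80.0 and 70.5 CPM with actD at 6 h and at 78.2, 68.7 and 56.6 with DMSO. The arms overlapped, and the log2 fold change was 0.19 (SE 0.14, interval -0.14 to 0.51, edgeR adjusted p = 0.787). At 72 h it was at 19.5, 19.0 and 59.8 CPM with actD and at 18.1, 16.3 and 33.2 with DMSO, so replicate 3 of each arm stood apart and the log2 fold change was 0.54 (SE 0.50, adjusted p = 0.671). At 2 weeks it was at 14.8, 14.5 and 18.3 CPM in libraries named actd and at 11.99, 13.05 and 14.61 in those named dmso, a log2 fold change of 0.27 (SE 0.14, adjusted p = 0.629).

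The intervals show which changes these libraries are compatible with, not the smallest change that the adjusted test could have called. At 6 h the 95% bounds of JUN, JUNB, IER2, IER3 and DUSP1 all lay within 0.51 of no change on the log2 scale. At 72 h the widest intervals were those of EGR1 (-1.20 to 2.39), ATF3 (-1.67 to 1.08), JUN (-0.07 to 2.33) and DUSP1 (-0.63 to 1.71). At 2 weeks JUNB (-0.44 to 0.13), IER3 and DUSP1 (-0.07 to 0.60) were bounded closely again, whereas FOS and EGR1 were not. In the interaction test of 72 h against 6 h, 0 of 10 genes passed, against 0.0165% of 24251 tested genes, with differences from -1.04 (ATF3) to 1.01 (JUN and EGR1).

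**Figure D2:**
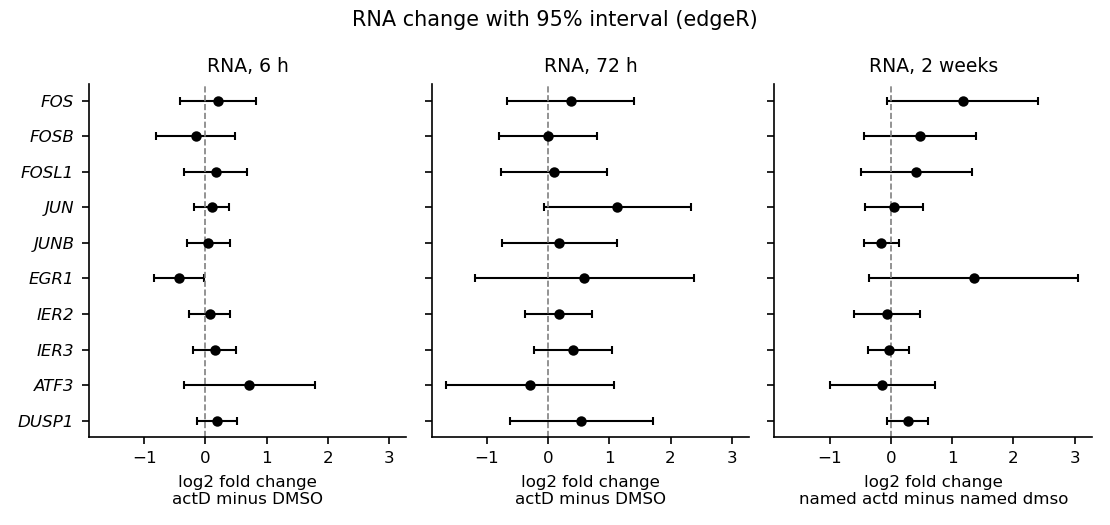
log2 fold change in RNA (actD minus DMSO, at 2 weeks named actd minus named dmso) with its 95% interval from edgeR for each gene, in 1 panel per time. All intervals include 0 except EGR1 at 6 h (-0.84 to -0.02), and EGR1 has the widest interval at 72 h and at 2 weeks.

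EGR1, FOS and ATF3 varied far more between libraries of 1 arm than most genes of like abundance. The standard deviation of log2(CPM + 0.5) within an arm, averaged over both arms, was 1.14 for EGR1 at 72 h, where 2269 genes within 0.5 log2 units of its level had a median of 0.311, which put EGR1 at the 97.8th percentile. EGR1 was at percentile 98.6 at 2 weeks and 77.2 at 6 h. FOS was at 93.1, 85.7 and 99.0 at the 3 times. ATF3 was at 97.5 and 92.4 at 6 h and 72 h and at 33.3 at 2 weeks, when its level was under 1 CPM. DUSP1 (95.9) and JUN (92.9) stood out at 72 h only, and were at 59.0 and 43.8 at 6 h. The highest library exceeded the lowest by 7.48 times for EGR1 at 72 h, by 10.5 times at 2 weeks and by 1.82 times at 6 h.

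**Figure D3:**
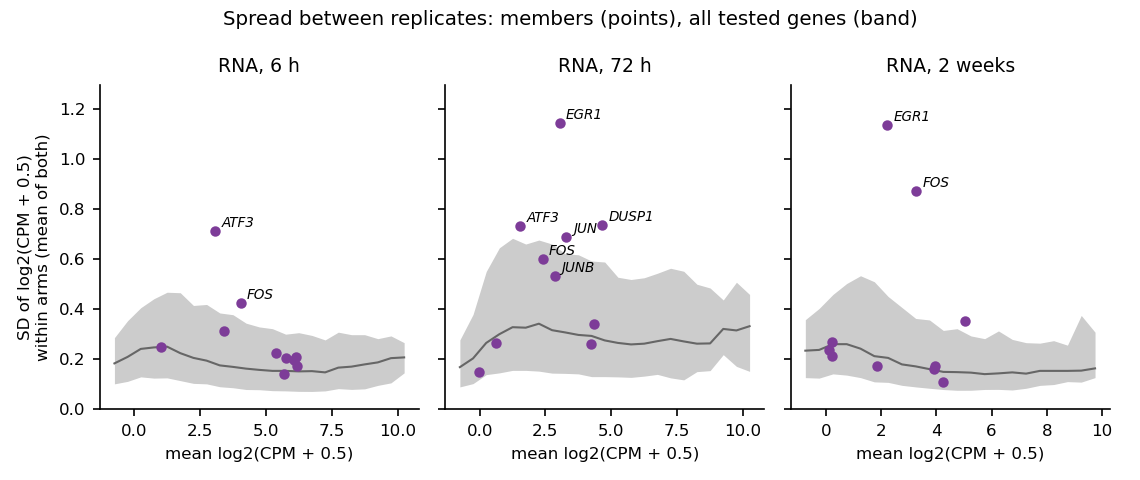
Standard deviation of log2(CPM + 0.5) between replicates, averaged over both arms, against mean level for the 10 genes (points), with the median (line) and the 10th to 90th percentile (band) of all tested genes. EGR1 lies above the band at 72 h and 2 weeks, FOS at 6 h and 2 weeks, ATF3 at 6 h and 72 h, DUSP1 and JUN at 72 h and IER2 at 2 weeks.

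The libraries that were high for 1 of these genes were often high for others, whatever the arm. At 72 h replicate 3 was the highest library of both arms for FOS, FOSL1, EGR1, ATF3 and DUSP1, 5 of 10 genes against 18.6% of all tested genes. In the same libraries JUNB, IER2 and IER3 were the lowest of both arms, 3 of 10 against 18.6%. Thus the class split in the same replicate, with EGR1 3.58 and 5.06 times the mean of the other replicates and JUNB 0.666 and 0.37 times, with actD and DMSO. JUN followed with actD (3.24 times) but not with DMSO (0.726 times). At 2 weeks replicate 3 was highest in both arms for FOS, JUN, EGR1, IER3, ATF3 and DUSP1, 6 of 10 against 16.7%, and at 6 h for JUNB, EGR1, IER3 and ATF3, 4 of 10 against 11.6%. This description was chosen after the values were seen and carries no test. The labels do not say that a replicate number marks a shared culture or day, and the part of library handling in this pattern was not tested.

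**Figure D4:**
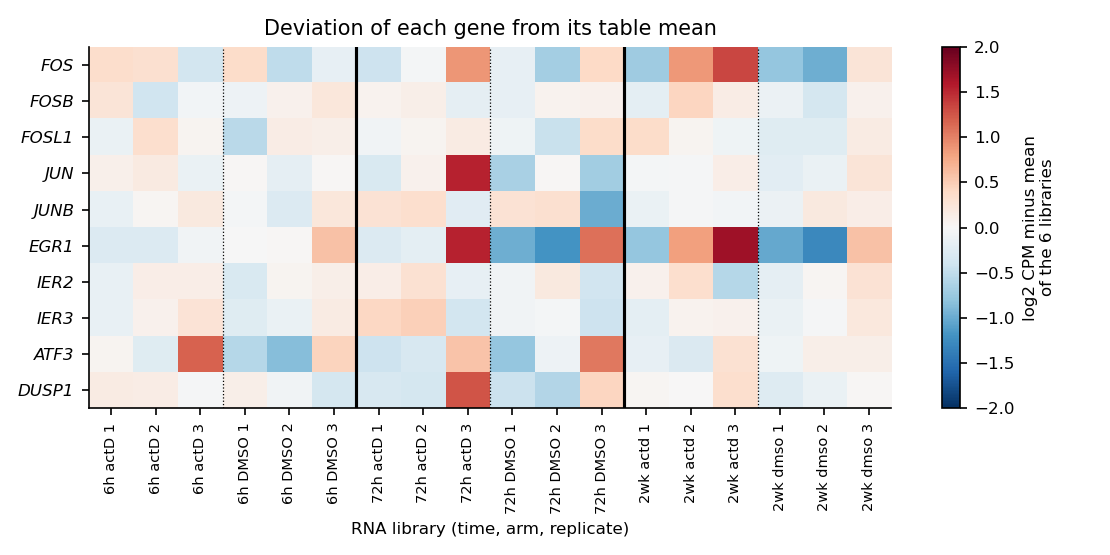
log2(CPM + 0.5) of each gene in each of the 18 RNA libraries minus its mean over the 6 libraries of the same time (red higher, blue lower); solid lines separate times and dotted lines separate arms. Replicate 3 at 72 h is red for EGR1, DUSP1, ATF3 and FOS and blue for JUNB, IER2 and IER3 in both arms, and EGR1 is among the most strongly coloured at 72 h and 2 weeks.

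Genes with the most similar course were sought among 11538 protein-coding genes with a mean of at least 100 counts in every RNA table. The measure was Pearson's r with the mean profile of the 10 genes, over 18 libraries, with each table centred on its own mean. The log2 values were not scaled by gene, so members with wide swings, such as EGR1 and FOS, weigh most in that mean. The highest values were 0.885 for SPRY2, an inhibitor of receptor tyrosine kinase signalling, 0.881 for PPP1R15A, a stress-induced phosphatase subunit, 0.86 for PINK1, a mitochondrial kinase, 0.856 for ZYX, a focal adhesion protein, and 0.836 for AMIGO2, a cell adhesion protein. The libraries share their tables and depth, so these values are a ranking only.

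Few ribosome footprints fell on these genes. Over all 18 footprint libraries IER2 had 150 counts, DUSP1 128, JUN 127, IER3 124, JUNB 86, EGR1 62, FOS 24 and FOSB 6, and FOSL1 and ATF3 were at 0 in each library. In a single library a count of 0 allows up to 3 counts, which was worth 2.7 to 37.3 CPM depending on the library. This floor is for 1 library and not for the 18 together. Translation of FOSL1 and ATF3 was not detected, and the part of depth in this was not tested. FOSB had its 6 counts with lower RNA at 6 h, at 1.05 to 1.95 CPM. In RNA at 6 h ATF3 averaged 8.99 CPM over the 6 libraries, and of the 9695 protein-coding genes at or above that level 5.47% had no footprint count in any of the 18 libraries. The corresponding share for FOSL1, at 10.4 CPM, was 5.08% of 9295 genes. In the 6 footprint libraries at 6 h alone, 22.8% and 21.8% of these genes had no count. Both sets were chosen by RNA at 6 h only and have no upper limit of level.

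The filter on low counts left no member for testing in footprints at 6 h and 72 h and only IER2 at 2 weeks. At 2 weeks IER2 had 6, 15 and 12 counts with actD and 9, 7 and 10 with DMSO, with a log2 fold change of 0.29 (SE 0.49, edgeR adjusted p = 0.857). Called genes made up 0%, 3.79% and 0% of all genes tested in footprints at the 3 times. The translational efficiency of IER2 at 2 weeks, its footprint value relative to its RNA value, differed by 0.29 (SE 0.57, adjusted p = 0.986), and it was the 1 member that could be tested. Called genes made up 0%, 0.433% and 0% of all genes tested for translational efficiency at the 3 times. With treatments as in the titles, 27 of 1441 genes were called at 2 weeks in place of 0. The IER2 value rests on the 2-week RNA labels. In the interaction test of footprints at 72 h against 6 h, IER2 (0.43, SE 0.67) and DUSP1 (0.82, SE 1.27) could be tested and neither passed, each with an adjusted p of 0.94 (0% of 3012 tested genes called). At 2 weeks against 72 h the same 2 genes could be tested and neither passed, against 0.0532% of 3760 genes, and IER2 differed by -0.16 (SE 0.63, adjusted p = 0.981). DUSP1 differed by -0.22 with an SE of 4.94 and an interval of -10.94 to 10.50, too wide to say anything about a change. Its sign turned in 6 of 17 alternatives.

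At 72 h 1 footprint library held most of the counts. In actD library 3 there were 59 counts for DUSP1, 50 for IER3, 44 for JUN, 20 for IER2 and 18 for EGR1. DUSP1 had 11 and 6 counts in the other actD libraries and 5, 6 and 3 with DMSO, and JUN had 8 and 3 with actD and 3, 2 and 1 with DMSO. These counts are not scaled for depth, and DMSO library 3 held 26831 protein-coding counts against 280076 in actD library 3. In CPM, EGR1 was higher in DMSO library 3 (24.9, from 2 counts) than in actD library 3 (21.4). DUSP1 (37.3 against 70.2), JUN, IER2 and IER3 were lower in DMSO library 3. The 10 genes took 0.0714% of the protein-coding counts of actD library 3 (exact 95% binomial interval 0.0619 to 0.082, counting error only), whereas the other 5 libraries at 72 h had 0.0223% to 0.0298%. The interval of DMSO library 3 was wide, at 0.0129 to 0.0587. The RNA library of the same arm and number was also the highest of its table for JUN, DUSP1 and EGR1, though not for IER2 or IER3. That RNA library was the highest for FOS too, but FOS had 0 counts in footprint library 3 with actD. At 2 weeks FOS had 2, 5 and 7 footprint counts with actD and 0, 0 and 2 with DMSO, which was below the filter and was not tested.

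**Figure D5:**
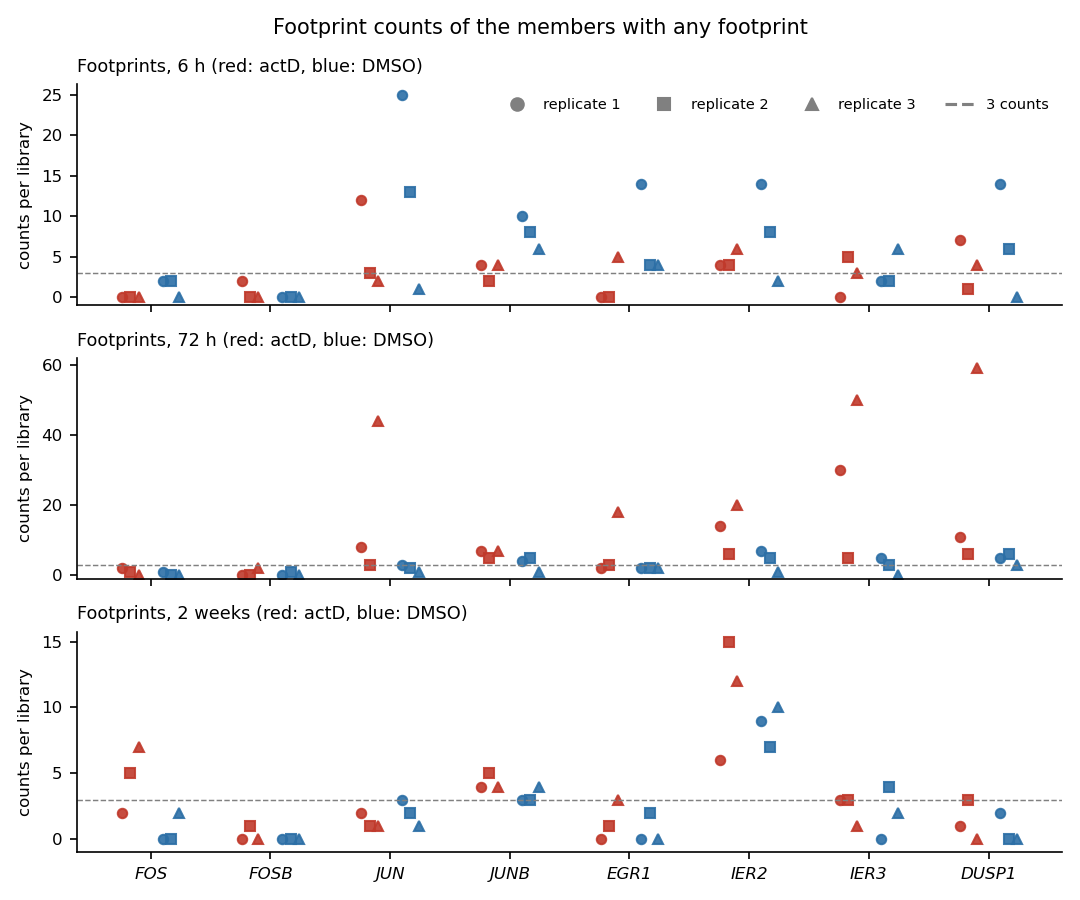
Footprint counts of the 8 genes with any footprint, 1 point per library, at 6 h, 72 h and 2 weeks; the dashed line marks 3 counts. The actD replicate 3 library at 72 h holds the highest counts for JUN (44), EGR1 (18), IER2 (20), IER3 (50) and DUSP1 (59), and most other points lie under 15. Counts are not scaled for library depth.

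No gene of 5 related lists passed the test either. In RNA 11, 11 and 11 of 12 AP-1 partners, 37, 35 and 32 of 39 other primary response genes, 22 of 22 upstream kinases and factors, 17 of 17 factors that bind or degrade AU-rich messages, and 12, 9 and 9 of 12 AP-1 target genes were tested at 6 h, 72 h and 2 weeks. 0 genes had an adjusted p under 0.05 in edgeR at any time. At an unadjusted p under 0.05 there were 0, 4 and 2 AP-1 partners, 5, 2 and 7 primary response genes, 2 at each time among upstream factors and among AU-rich factors, and 1 at each time among AP-1 targets. Over all tested genes that share was 8.21%, 13.1% and 8.93%. The other primary response genes had median log2 fold changes of 0.22, 0.18 and 0.10, beside 0.12, 0.27 and 0.16 for the 10 immediate-early genes.

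The gene with the smallest p of each list and time gave the following values. Among AP-1 partners these were JDP2 at 6 h (0.52, SE 0.23, edgeR adjusted p = 0.622), MAFK at 72 h (1.49, SE 0.40, adjusted p = 0.265) and FOSL2 at 2 weeks (-0.42, SE 0.13, adjusted p = 0.463). JDP2 and FOSL2 are bZIP proteins that pair with JUN proteins. Among primary response genes they were the nuclear receptor NR4A3 (0.99), the growth factor HBEGF (1.62) and the matrix protein CYR61 (0.97), with adjusted p-values of 0.56, 0.339 and 0.343. HBEGF at 72 h averaged 23.5 ± 22.2 CPM (SD, n = 3) with actD and 7.63 ± 1.39 with DMSO. Among upstream genes they were the SRF co-activator MRTFA (-0.34), the kinase MAP2K1 (-0.62) and the p38 kinase MAPK14 (-1.01), with adjusted p-values of 0.594, 0.316 and 0.463. Of the factors that bind or degrade AU-rich messages, they were TIA1 (0.32), PARN, a poly(A) ribonuclease (-1.04), and TNRC6B (-0.85), with adjusted p-values of 0.557, 0.199 and 0.221. The AP-1 targets were PLAUR at 6 h (0.48), VIM at 72 h (-0.40) and PLAUR at 2 weeks (0.76), with adjusted p-values of 0.464, 0.379 and 0.489.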

How the data were processed

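The authors deposited 1 table per assay and time, holding whole numbers per gene that are taken as estimated counts (expected counts), because no counting program is named in the labels or file headers. HISAT2, StringTie and the human genome build hg38 are named in the submitters' processing notes. Which reads were counted, and whether strand was used, is not given in the sources used here. Low RNA values at 6 h and at 2 weeks are enriched 1.66 to 1.96 times at multiples of a step above 1 count over the values next to them, so each table has its own scale and no floor is given for those RNA libraries. Floors of 3 counts and binomial intervals describe counting error alone, because PCR duplicates are not separate molecules. Protein-coding genes took 52.89% to 76.3% of RNA counts and 2.12% to 40.36% of footprint counts. All 36 value columns were used, and 99.4% of identifiers matched GENCODE release 29 without their version.

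The test was edgeR's two-sided quasi-likelihood test (version 4.0.16 in R 4.3.3), with TMM scaling, the filterByExpr filter and Benjamini-Hochberg adjustment over all genes tested, and called at an adjusted p-value under 0.05. Each table had a fit of its own over 6 libraries. Translational efficiency and differences between 72 h and 6 h were tested as interactions on 12 libraries. Intervals are 95% intervals from the fitted value, its standard error and its degrees of freedom. The scripts were tested on simulated counts. The smallest p that an exact permutation test of 3 against 3 libraries allows is 0.1. Alternatives were DESeq2 1.42.0, its size factors, library totals, a looser filter, 1 fit over 3 time points, a replicate block, each replicate left out and, for 2 weeks, the opposite labels. The 10 genes and the related lists were chosen with earlier results of these data known. All 10 genes are named wherever tested, and of each list the gene with the smallest p where none passed. 1 marker gene is not reported here.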

Additional observations from a re-analysis of the deposited data

How the results depend on the processing

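In RNA the count of immediate-early genes called was 0 under each of the 38 alternatives at the 3 times, leaving out each replicate included, with 7 to 10 members tested. Over all comparisons 137 of 177 alternatives tested at least 1 member, and 0 members were called there. The other 40 tested none and say nothing about stability. Signs of single values changed in 6 of 120 fits in RNA at 6 h, 12 of 130 at 72 h and 19 of 130 at 2 weeks, where the treatments as given in the titles account for 10 of the 19. The smallest adjusted p of any member over all alternatives was 0.0775 (EGR1, 72 h). Counts over all genes moved more. At 6 h edgeR called 0 genes in RNA and DESeq2 195. At 72 h edgeR called 1, DESeq2 590, the fit over 3 time points 1408, and edgeR without replicate 3 of both arms, chosen after seeing the data, 419. At 2 weeks edgeR called 0, DESeq2 171 and library totals 6. In footprints at 72 h the count of 92 became 125 with DESeq2, 7 with library totals and 0 with the looser filter. For translational efficiency at 72 h the count of 10 became 152 with DESeq2.

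Replicate numbers were not taken as pairs. Deviations of same-numbered actD and DMSO libraries correlated at -0.098, -0.034 and -0.15 in RNA at 6 h, at 0.074, 0.25 and 0.16 at 72 h, where 6 of 6 libraries correlated best with their own number, and at 0.061, -0.026 and 0.19 at 2 weeks. With a replicate block, 0 members and 0 genes were called in every comparison, 4 of which tested no member. The block lowered the SE of some members, as given above for EGR1. For ATF3 at 6 h it gave 0.70 (SE 0.15, edgeR unadjusted p = 0.00303, adjusted p = 0.64). For FOS at 2 weeks it gave 1.05 (SE 0.34, unadjusted p = 0.0207, adjusted p = 0.45).

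With the longest transcript as length, the vehicle level per kb was 7.08 for FOS, 0.4401 for FOSB and 3.227 for ATF3 at 6 h, 2.077, 0.1272 and 1.42 at 72 h, and 0.1478 for FOSB and 0.334 for ATF3 at 2 weeks, and FOS then ranked above FOSL1 at 6 h. With library totals the spread was 0.21 for JUN at 6 h and 0.0981 for DUSP1 at 2 weeks. Footprint depth, 8 to 200 counts for the class per library, limits every statement on translation.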
